A study of Mus musculus with 7 samples.

Results

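The wild type (WT) day 6 effector state of OT-I CD8 T cells is described here from the 4 WT libraries of a series of 7, chosen by their titles, which number them as WT replicates 1 to 4. OT-I cells carry a transgenic T cell receptor (V alpha 2 with V beta 5) that recognises an ovalbumin peptide on H2-Kb. All 4 libraries are C57Bl/6 strain cells with the WT genotype. Per the labels, the cells bore a congenic mark, C57Bl/6 hosts received them 1 day ahead of infection, the pathogen was ovalbumin-expressing Listeria monocytogenes, and total RNA of the recovered cells was sequenced at day 6. All 4 libraries thus share the OT-I label, the transfer and the infection. No uninfected or untransferred cells were among the samples, so the levels below are those of infected mice alone. Whether each library is a separate animal, whether animals were pooled and how the cells were sorted is not stated in the labels. The spread between libraries may therefore be biological or technical.

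On meeting antigen in an infected host, a naive CD8 T cell divides many times and its progeny become effector cells, which kill through granules loaded with perforin and granzymes and secrete cytokines such as interferon gamma. Towards the peak of the response the population splits: KLRG1-high, IL-7 receptor-low cells mostly die after the infection is cleared, while cells that keep IL-7 receptor and TCF-1 give rise to memory. Division during expansion is fast and is switched off as the response peaks. Transcripts of DNA replication and mitosis fall when cells leave the cycle, since their promoters are repressed in resting cells by complexes that bind E2F sites and the cell cycle homology region (CHR, the letters TTTGAA).

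WT replicate 4 stood apart from the others. Levels are given as CPM, which is the count of a gene per 1000000 counts of the library after TMM scaling over the 4 libraries, and for comparisons between genes as CPM per kilobase (kb) of merged exons. The libraries held 45288353 to 75586011 counts, and 12000 of 16156 genes averaged at least 1 CPM. Across these genes the Spearman correlation was 0.989 to 0.995 among replicates 1 to 3 and 0.932 to 0.938 between each of them and replicate 4, as a description of libraries that share most of their transcripts. Between 59 and 82 genes were 2-fold apart in each pair among replicates 1 to 3, and 1732 to 1886 in each pair with replicate 4. No pair differed by as little as sampling noise, since chi-square per degree of freedom was at least 50.6, so the 4 were treated as separate libraries. Replicate 4 had 653 genes without a count against 99 to 129 in the others, at a total count within their range. Of these 653 genes, 305 had at least 10 counts in each of replicates 1 to 3.

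The receptor segments also set replicate 4 apart. Trbv12-1, the segment name in this annotation for the V beta 5 chain of OT-I cells, took 98.8%, 99.0% and 98.8% of the counts on the 21 Trbv segments in replicates 1 to 3 and 81.0% in replicate 4. The exact (Clopper-Pearson) 95% intervals, which cover counting error only, were 98.7 to 98.9%, 98.9 to 99.1%, 98.6 to 98.9% and 80.6 to 81.5%. Trbv12-2, Trbv1 and Trbv13-2 took 3.45%, 2.47% and 2.24% of Trbv counts in replicate 4 and at most 0.238% in any other library. Trbj1-1, a joining segment of the beta chain locus, was at 50.6, 52.1 and 50.4 CPM in replicates 1 to 3 and at 0.721 CPM in replicate 4, from 44 counts. Its share of Trbj counts was 23.8%, 24.7%, 23.8% and 1.04%, and 13 or 14 of the 14 joining segments were over 1% in every library. Among 53 Trav segments of the alpha chain, Trav21-dv12 took 17.2%, 18.5%, 17.3% and 1.99%, and Trav14-1, of the V alpha 2 family, 8.16%, 8.18%, 5.35% and 7.77%, with 23 to 28 segments over 1%. Trdc, the constant region of the delta chain, was at 315, 298 and 310 CPM against 16.6 CPM, and Trdv1, a delta variable segment, at 15.9, 14.6 and 13.1 CPM against 0.9996 CPM. Trav segments held 4671, 2689, 3214 and 2265 counts in replicates 1 to 4, against 51865, 37026, 32362 and 25855 on Trbv segments. Trac held 73497, 38951, 50318 and 75478 counts. The alpha shares thus rest on few assigned counts and do not give the alpha repertoire of the cells. Whether counts on joining segments came from rearranged transcripts was not tested. In assigned counts, the first 3 libraries were nearly uniform in beta variable segments, but not in joining or alpha segments, and they shared the delta transcripts. Replicate 4 was less uniform in beta variable segments and low in the delta transcripts. The part of these differences in the results on replicate 4 was not tested, and each level is given with its value in all 4 libraries.

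The label of CD8 T cells was checked on the coreceptor and receptor transcripts, which were abundant. Cd8b1, the beta chain of CD8, was at 2374, 1967, 1932 and 1398 CPM in replicates 1 to 4. Cd8a, the alpha chain, was at 676, 525, 652 and 759.6 CPM. Cd4 was at 0, 0.155, 0 and 0.115 CPM, far below both. The 19 listed genes of the receptor complex, CD8 and proximal signalling lay high among all genes, with a median percentile of 99.0 by CPM per kb. None of the 19 was 2-fold outside the range of replicates 1 to 3 in replicate 4. Of genes with a mean of at least 1 CPM, 5.97% were so above it and 4.92% below. Trac, the alpha constant region, was the member relatively highest in replicate 4 (983, 864, 934 and 1237 CPM).

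Transcripts of actin dynamics, of MHC class I and of the chemokine CCL5 led the levels by CPM, and of the cytotoxic list only Nkg7 was among the 20 highest. Tmsb4x, which encodes the actin-sequestering peptide thymosin beta 4, led with 14150, 18155, 10221 and 14966 CPM. Actb (beta actin) followed with 5517, 4770, 5665 and 10416 CPM, and H2-D1, a classical MHC class I heavy chain, with 7443, 6723, 6939 and 4900 CPM. Ccl5, a chemokine that effector and memory CD8 cells store and release, was at 6408, 5932, 6511 and 2612 CPM. In Tmsb4x the spread was mostly between replicates 2 and 3, while in Ccl5 replicate 4 was alone in being low. The rest of the 20 highest by CPM were B2m, H2-K1, Itgb1, Ms4a4b, Pfn1, Ptprc, Lars2, Coro1a, Jak1, Ets1, Nkg7, Laptm5, Shisa5, Lcp1, Lck and Rac2, with means of 2159 CPM or more.

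Ranked per kb of exon, the order changed in favour of short transcripts. After 1 unnamed miRNA model, Tmsb4x was highest at 10484 CPM per kb, then Ccl5 at 5590, B2m at 5524, Nkg7 at 2704, H2-D1 at 2521 and Actb at 2461. B2m (beta 2 microglobulin, the light chain of MHC class I) was at 5309, 5950, 3997 and 3747 CPM in replicates 1 to 4. Apart from a further unnamed model, the remaining genes among the first 20 were the receptor segments Trbd1, Trbv12-1, Trbc2 and Trac, together with Pfn1, Cd52, H2-K1, Cd8b1, Lgals1, Tmsb10, Coro1a and Itgb1. Trbd1 is a segment of 12 bases, so its place rests on its length more than on its 4.28 to 26.7 CPM. Without replicate 4, 17 of the 20 kept their place: Lgals1, Coro1a and Trac left, and Gimap4, a mitochondrial gene and Trbj1-1 entered.

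**Figure D1:**
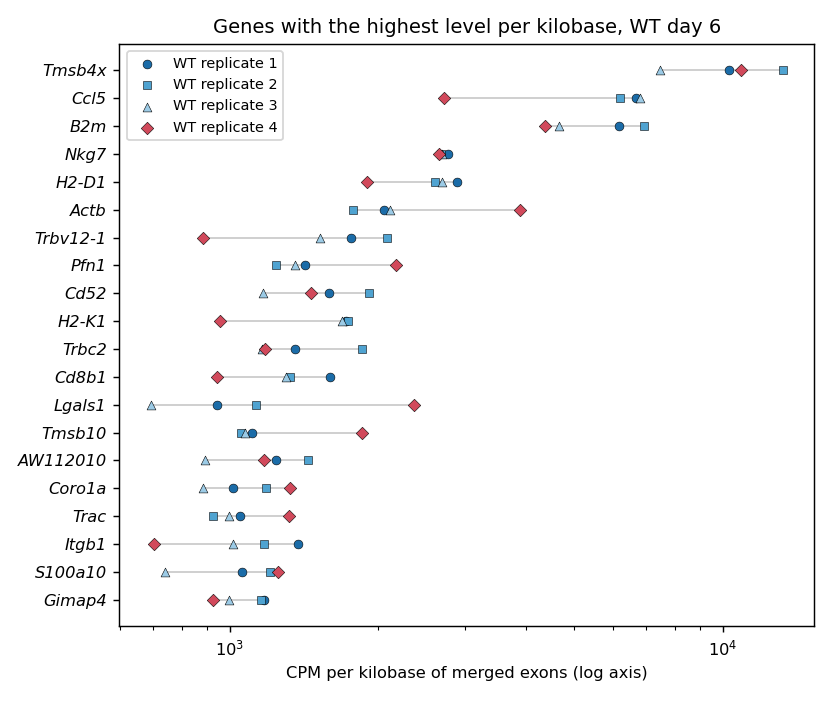
CPM per kilobase of merged exons (log axis) for the 20 genes of more than 100 exon bases with the highest mean over the 4 WT libraries, 1 symbol per library and a grey line over their range. Nkg7 hardly varied among the 4, Ccl5 and H2-K1 were lowest in replicate 4, and Actb, Pfn1, Lgals1 and Tmsb10 were highest there.

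The counts were spread over many genes. The top 10 genes took 5.34% to 6.30% of all counts in a library and the top 100 took 18.6% to 19.7%. Of the 100 highest genes, 82 were common to replicates 1 to 3 and 64 to all 4. By mean CPM, 2517 genes were at 100 CPM or more and 8480 at 10 or more.

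Among the cytotoxic genes the level was high and uneven. The 16 measured members had a median percentile of 97.4 by CPM per kb. Nkg7, a granule membrane protein needed for degranulation, was at 2531, 2457, 2469 and 2430 CPM, a mean ± SD of 2472 ± 42.7 CPM (n = 4). Gzma (granzyme A) was the highest granzyme at 765 CPM per kb, with 775, 1414, 743 and 147 CPM by library. Gzmb (granzyme B), the caspase-activating granzyme, was at 256, 301, 238 and 150.4 CPM. Prf1 (perforin, the pore that lets granzymes in) was at 320, 303, 349 and 86.2 CPM, and Fasl (Fas ligand) at 42.1, 81.0, 72.0 and 18.8 CPM. Nkg7 was thus steady in all 4 libraries, whereas each of these other genes was lowest in replicate 4. Gzmk, a granzyme of less differentiated effector cells, stood at 162, 294, 180.2 and 50.2 CPM. Ctsc went the other way, at 250, 221, 241 and 336 CPM. In replicate 4, 4 of the 16 were at least 2-fold under the lowest of replicates 1 to 3 and 0 over the highest. Of genes with a mean of at least 1 CPM, 4.92% were so below and 5.97% above. By any amount 9 of the 16 were lowest in replicate 4, as were 43.8% of those genes, and 1 was highest.

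The secreted factors were led by Ccl5, and next by Ltb (lymphotoxin beta) at 1060, 1042, 906 and 679 CPM. Ifng, which encodes interferon gamma, was at 46.7, 69.3, 83.5 and 29.9 CPM. Ccl4, a chemokine made soon after receptor triggering, was at 101, 136, 190.0 and 36.9 CPM. Replicate 3 was the highest and replicate 4 the lowest for both. Tnf, at 3.81, 3.81, 5.68 and 7.44 CPM, and Il2, at 1.11, 0.776, 0.594 and 2.83 CPM, were low in every library.

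Regulators of the effector and memory fates were present side by side. Tbx21 (T-bet, which drives effector differentiation) was at 650.0, 595, 618 and 519 CPM, or 239 CPM per kb. Tcf7 (TCF-1, which keeps memory potential) was at 1035, 799.7, 1166 and 993 CPM, or 380.4 CPM per kb. Neither set replicate 4 apart by as much as 2-fold. Id2, an inhibitor of E proteins that effector cells raise, was at 1672, 1800, 1395 and 431 CPM. Zeb2, a repressor active in terminal effectors, was at 219, 251, 213 and 47.9 CPM, and Eomes, a T-box factor shared with memory, at 81.2, 101, 123 and 33.7 CPM. Id2, Zeb2 and Eomes were the 3 of 15 effector factors at least 2-fold lower in replicate 4 than in each of the others. This held for 4.92% of all genes with a mean of at least 1 CPM. Id3, an inhibitor of E proteins that memory precursors keep, went the other way, at 25.4, 26.3, 26.7 and 105 CPM.

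On the surface, Klrg1 (the terminal effector marker KLRG1) was at 243, 402, 225 and 30.6 CPM and 159 CPM per kb. Il7r (IL-7 receptor alpha, a marker of memory precursors) was at 746, 670.1, 825 and 335 CPM and 138 CPM per kb. Both were thus well expressed in replicates 1 to 3, and both were lowest in replicate 4. A bulk library cannot show whether the same cells held both, and fewer cells of a type cannot be told apart from less RNA per cell. Cd44, an adhesion molecule of antigen-experienced cells, was at 164, 141, 188 and 181 CPM. The chemokine receptor Ccr7, which guides T cells into lymph nodes, had values of 103, 99.2, 127 and 105 CPM. In Cd44 and Ccr7 replicate 4 lay within the range of the others.

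Replicate 4 was next compared with replicates 1 to 3 over the 12000 genes with a mean of at least 1 CPM. Replicate 4 was singled out with its cell cycle transcripts already known, it is 1 library, and all 4 share 1 label. No test was therefore made, and 1 library against 3 could reach no exact permutation p below 0.25. A gene is counted as above when replicate 4 was at least 2-fold over the highest of replicates 1 to 3 on the log2(CPM + 0.5) scale, and as below when it was at least 2-fold under the lowest. This gave 716 genes above, 5.97% of those compared, and 591 below, 4.92%. For scale, 158 genes, 1.32%, spanned at least 2-fold among replicates 1 to 3 themselves. The median log2 ratio of replicate 4 to the median of the other 3 was -0.05 over all genes compared. By any amount, replicate 4 was higher than each other library for 4292 genes (35.8%) and lower than each for 5257 (43.8%). At the 2-fold limit, Smc4 was just counted above (182, 189, 178 and 379 CPM) and Ighm just missed (294, 222, 321 and 642 CPM). On the low side Fbxw5 was just counted (109, 94.0, 106 and 46.6 CPM) and Enpp1 just missed (17.9, 19.8, 18.8 and 8.69 CPM).

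**Figure D2:**
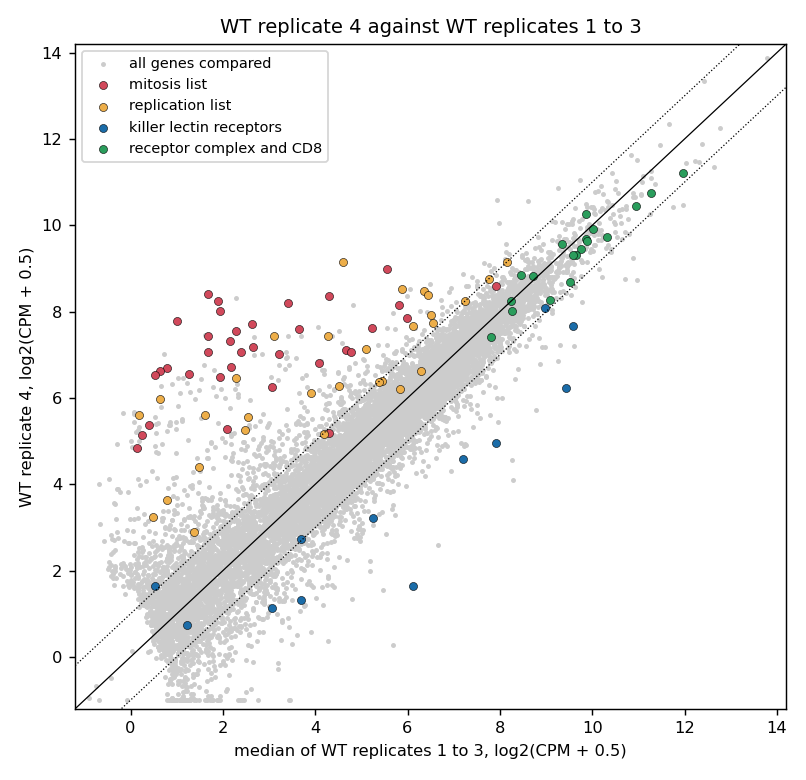
Each point is 1 of the 12000 genes compared, with the median of WT replicates 1 to 3 on the x axis and WT replicate 4 on the y axis, both as log2(CPM + 0.5); the solid line marks equal levels and the dotted lines a 2-fold difference from that median. Most mitosis genes (red) and replication genes (orange) lie above the upper dotted line, most killer lectin receptors (blue) below the lower one, and the receptor complex (green) between them.

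Many of the largest gaps above belonged to genes of cell division: of the 133 genes at least 8-fold above, 35 were members of the cell cycle lists, which hold 86 of the 12000 genes compared. Of the 35 mitosis genes, 33 were counted above and 0 below, with a median log2 ratio of 4.69. Their summed level was 671, 585 and 650.5 CPM in replicates 1 to 3 and 6032 CPM in replicate 4. Every one of the 11 mitotic kinases and cyclins and of the 13 spindle and kinetochore genes was among the 33; Cdc25b and Ube2s, at log2 ratios of 0.68 and 0.89, were the exceptions of the list. Replication genes followed, with 21 of 30 above, 0 below and a median of 2.08, and a sum of 1511, 1443, 1583 and 4974 CPM. Over all genes compared, 5.97% were above and 4.92% below. Since replicate 4 was chosen for its cell cycle transcripts, the counts describe it and support nothing further.

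Ube2c, the ubiquitin-conjugating enzyme of the anaphase-promoting complex, had the largest gap among named genes with a mean of at least 10 CPM, at 2.85, 1.51, 1.28 and 219 CPM. Birc5 (survivin, of the chromosomal passenger complex) was at 4.76, 2.71, 2.17 and 341 CPM, and Ccnb2 (cyclin B2) at 4.88, 2.51, 3.19 and 301 CPM. These are 65.7-, 65.0- and 56.1-fold above the highest of the other libraries with the 0.5 CPM added. Mki67, which encodes the proliferation antigen Ki-67, was at 21.9, 19.3, 16.1 and 328 CPM. So transcripts of mitosis were present but low in replicates 1 to 3 and abundant in replicate 4. Among replicates 1 to 3, replicate 1 was the highest for Ube2c, Birc5, Ccnb2 and Mki67. The mitotic kinases and cyclins summed to 45.5, 38.4 and 32.7 CPM there, while the sums of the whole mitosis list were closer. Others of the 10 largest gaps were Ccna2 (cyclin A2, which overlaps exons of Exosc9), Pclaf (a PCNA partner), Pbk (a mitotic kinase), Shcbp1, Esco2 (a cohesin acetyltransferase) and Kif2c (a kinesin that depolymerises microtubules), each at 50.7 to 316 CPM in replicate 4 and at most 6.41 CPM elsewhere.

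In DNA replication, Rrm2 (the regulated subunit of ribonucleotide reductase) was at 29.0, 23.7, 20.7 and 568 CPM. Cdc6, which loads the MCM helicase on origins, was at 0.642, 0.998, 0.594 and 47.998 CPM, and Mcm6, a helicase subunit, at 283, 275, 317 and 569.5 CPM. Mcm6 was therefore well expressed in every library and was not counted above, while Cdc6 was found almost only in replicate 4. All 5 nucleotide synthesis genes, 10 of 13 origin and helicase genes (median log2 ratio 2.65) and 6 of 12 fork genes were counted above. In G1 control, 9 of 21 genes were above and 0 below: E2f7, a repressor E2F of late S phase, stood at 0.535, 0.554, 0.724 and 43.2 CPM, and Ccnd3 (cyclin D3) at 323, 314, 355 and 358 CPM. Cdkn2d, a CDK4 and CDK6 inhibitor, was at 197, 188, 196 and 137 CPM. Of the replication-dependent histone genes 10 of 18 were above, and H1f5 was at 0.495, 0.577, 0.742 and 27.5 CPM. Over all genes compared, 5.97% were above and 4.92% below. The 11 antiproliferative genes had 0 above and 0 below, with a median log2 ratio of -0.67. By any amount 9 of them were lower in replicate 4 than in each other library, as were 43.8% of all genes compared. Among them Slfn2, a quiescence factor of T cells, was at 1139, 1499, 1014 and 509 CPM.

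The promoters of cell cycle genes are shown because these genes differed together. Each is the 250 bases before the RefSeq start of the gene, 5′ to 3′ on its own strand in GRCm38, with motif letters on either strand in capitals. The motifs searched were the CHR given above, the CCAAT box by its own letters, and an E2F site, spelled TTTGGCGC, TTTGCCGC, TTTCGCGC or TTTCCCGC. Ube2c, Ccnb2 and Birc5 had 3 of the largest gaps, and Mcm10 and Cdc6 are origin factors. The 5 were chosen after their values were seen. In the GENCODE M21 annotation Cdc6 starts at base 98907801 and Ube2c at base 164769898. By those starts the whole Cdc6 stretch and the last bases of the Ube2c stretch lie inside the gene. The other promoters counted below were not checked for this.
Ube2c (chr2:164769679-164769928, plus strand): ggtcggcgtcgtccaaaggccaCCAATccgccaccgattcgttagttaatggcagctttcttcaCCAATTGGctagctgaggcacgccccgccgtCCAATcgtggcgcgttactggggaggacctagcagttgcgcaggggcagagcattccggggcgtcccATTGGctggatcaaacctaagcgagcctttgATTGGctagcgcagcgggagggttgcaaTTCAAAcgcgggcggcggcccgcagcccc
Ccnb2 (chr9:70421555-70421804, minus strand): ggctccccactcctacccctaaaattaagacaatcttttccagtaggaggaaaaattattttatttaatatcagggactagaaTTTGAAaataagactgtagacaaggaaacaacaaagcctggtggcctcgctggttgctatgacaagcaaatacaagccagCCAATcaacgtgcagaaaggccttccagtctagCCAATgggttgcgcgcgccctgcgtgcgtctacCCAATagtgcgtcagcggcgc
Birc5 (chr11:117848987-117849236, plus strand): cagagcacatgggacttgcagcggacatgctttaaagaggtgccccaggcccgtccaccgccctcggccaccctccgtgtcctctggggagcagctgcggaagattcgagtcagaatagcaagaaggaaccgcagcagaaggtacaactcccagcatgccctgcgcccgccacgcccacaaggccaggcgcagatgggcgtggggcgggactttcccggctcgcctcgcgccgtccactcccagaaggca
Mcm10 (chr2:5012792-5013041, minus strand): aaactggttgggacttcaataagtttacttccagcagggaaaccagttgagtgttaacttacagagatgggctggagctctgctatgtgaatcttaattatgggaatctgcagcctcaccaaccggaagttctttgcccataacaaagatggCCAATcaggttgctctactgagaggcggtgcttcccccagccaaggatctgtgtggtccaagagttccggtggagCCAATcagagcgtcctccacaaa
Cdc6 (chr11:98907901-98908150, plus strand): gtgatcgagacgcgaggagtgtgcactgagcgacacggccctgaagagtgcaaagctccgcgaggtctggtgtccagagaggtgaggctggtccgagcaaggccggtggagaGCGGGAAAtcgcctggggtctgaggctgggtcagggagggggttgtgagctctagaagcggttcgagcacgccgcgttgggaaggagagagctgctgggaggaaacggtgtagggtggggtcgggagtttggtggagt
Ube2c held 1 CHR and 6 CCAAT matches, Ccnb2 1 CHR and 3 CCAAT matches, Mcm10 2 CCAAT matches, Cdc6 1 E2F match, and Birc5 none. Of the 28 mitosis genes with a single promoter in the table, 22 (78.6%) held CCAAT and 10 (35.7%) the CHR, against 37.7% and 10.7% of the 7053 compared genes with a single promoter. Of 20 replication genes, 14 (70.0%) held CCAAT, 6 (30.0%) an E2F site and 2 the CHR, where 3.97% of all held an E2F site. Among the 431 genes above with a promoter, 20.2% held the CHR, and among the 322 below, 12.7%. The CHR letters were also in 4 of 9 killer lectin promoters, whose genes were lower in replicate 4. No motif contains another, and overlapping matches on the 2 strands, such as one stretch of Ube2c, were counted separately. These matches describe the letters and show no binding.

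Outside the cell cycle lists, 653 genes were above. Those lists hold 86 of the genes compared and leave out the histone list, and the 653 were not sorted for further genes of cell division. Ccr9, the receptor that brings T cells to the small intestine, had the third largest gap, at 1.70, 0.843, 1.15 and 129.5 CPM. Itgae (CD103, the integrin chain of intraepithelial cells) was at 5.83, 6.25, 4.32 and 32.8 CPM. Both were above in replicate 4, while Itgb7, the partner chain of CD103, was at 1272, 817, 1063 and 1748 CPM and was not counted. Car2 (carbonic anhydrase 2) was at 2.58, 9.69, 2.32 and 175 CPM, and also among the 10 genes that varied most within replicates 1 to 3.

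Inhibitory receptors and the factors that go with them were divided. Of 13 compared, 4 were above and 2 below, where 5.97% of all genes compared were above and 4.92% below. Pdcd1 (PD-1) was at 32.2, 35.6, 28.2 and 119.9 CPM, Tox, a factor of chronically stimulated cells, at 25.8, 26.5, 32.4 and 78.8 CPM, and Tox2 at 0.361, 0.0222, 0.278 and 11.3 CPM. Cd244a (2B4) was the other gene above. Havcr2 (TIM-3), at 9.44, 8.72, 7.89 and 0.410 CPM, and Entpd1 (CD39), at 10.5, 13.1, 15.0 and 3.52 CPM, were below. Lag3 was at 14.9, 14.1, 14.6 and 14.9 CPM, and Cd160, the highest of the list per kb, at 105, 169, 116 and 259.8 CPM. PD-1 and TIM-3 transcripts thus lay on opposite sides in replicate 4.

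Of the 14 S100, annexin, galectin and related genes, 7 were above and 1 below in replicate 4, and of the 12 actin genes 0 and 0. Over all genes compared, 5.97% were above and 4.92% below. Lgals1 (galectin 1) was at 853, 1023, 626 and 2135 CPM, Lgals3 (galectin 3) at 89.3, 99.9, 68.7 and 398 CPM, and Vim (vimentin) at 280.1, 245, 291 and 763 CPM. Anxa2 (annexin A2) was above as well, at 251, 254, 189.9 and 1064 CPM, while Anxa1 (annexin A1) was below, at 148, 227, 129 and 29.2 CPM.

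Basal machinery had few members counted, where 5.97% of all genes compared were above and 4.92% below. At those shares short lists hold few counted genes by size alone, so these counts describe the lists and support nothing further. The nuclear genes of the respiratory chain had 0 above and 0 below among 78, with a median log2 ratio of 0.34 and 51 higher in replicate 4 than in each other library by any amount, which held for 35.8% of all genes compared. Proteasome genes had 0 and 0 of 41 (median 0.30), mitochondrial genome genes 0 and 1 of 14 (median 0.12), and ribosomal protein genes 1 and 0 of 84 (median 0.16, with Rpl28 above). Rpl28 shares exons with Ube2s of the mitosis list, so its counts are uncertain. By any amount 28 proteasome, 6 mitochondrial genome and 35 ribosomal protein genes were higher in replicate 4 than in each other library. In glycolysis 3 of 21 were above and 1 below: Gapdh was at 173, 182, 189 and 415 CPM, Tpi1 at 53.1, 63.0, 47.4 and 134.6 CPM, and Ldha (lactate dehydrogenase A), not counted, at 756, 762, 735 and 1089.7 CPM. Chaperones and ATF4 targets had 2 above, Phgdh and Psat1 of serine synthesis, and 1 below, Trib3, among 18. The costimulatory receptors had 1 above of 12, Tnfrsf9 (4-1BB, at 4.49, 3.81, 4.99 and 18.2 CPM). Survival and death genes had 0 above and 2 below of 18, Fas and Bmf.

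Acetyl-CoA and lipid genes are given because the series concerns these enzymes. Acly, the ATP citrate lyase that makes cytosolic acetyl-CoA from citrate, was at 381, 336, 399.9 and 267 CPM, and Acss2, which makes it from acetate, at 197, 204, 183 and 95.5 CPM. Both were lowest in replicate 4 without reaching the limit. The 8 acetyl-CoA genes had 0 above and 0 below, where 5.97% of all genes compared were above and 4.92% below. Of 13 cholesterol synthesis genes 3 were above, among them Cyp51, a sterol demethylase, at 19.2, 20.2, 16.7 and 44.8 CPM. Acss2 shares exons with Ggt7 and Gss, so its counts are uncertain.

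Killer lectin receptors, which effector CD8 cells share with NK cells, formed the list with most members below. Of 12 compared, 8 were below and 0 above, with a median log2 ratio of -1.99, and their sum was 2490.3, 3394, 2216 and 629 CPM. Over all genes compared, 4.92% were below and 5.97% above. Klrc1 (NKG2A) was at 691, 995, 640.2 and 74.1 CPM, Klrk1 (NKG2D) at 763, 930.4, 705 and 203.5 CPM, and Klrb1c (NK1.1) at 69.1, 73.8, 49.7 and 2.62 CPM. Klrd1 (CD94), which pairs with NKG2A, was not counted, at 506, 672, 400.5 and 269 CPM. In each of these genes replicate 2 was the highest and replicate 4 the lowest. Genes of this cluster on chromosome 6 are alike in sequence, so reads may be split among copies.

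Several homing receptors of effector cells were lower as well. Of 22 homing and adhesion genes, 5 were below (among them S1pr5, Ccr2, Cx3cr1 and Itgax) and 2 above (Ccr9 and Itgae). Over all genes compared, 4.92% were below and 5.97% above. S1pr5, a sphingosine phosphate receptor for exit from tissue, was at 291, 344, 306 and 23.3 CPM. Ccr2, a receptor for monocyte chemokines, was at 609, 813, 567 and 115 CPM, and Cx3cr1, the fractalkine receptor of cytotoxic effectors, at 194, 216, 192 and 85.2 CPM. Cxcr3, which guides T cells to inflamed tissue, was not counted, at 479, 357, 468 and 585 CPM. The receptors thus did not all go one way.

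**Figure D3:**
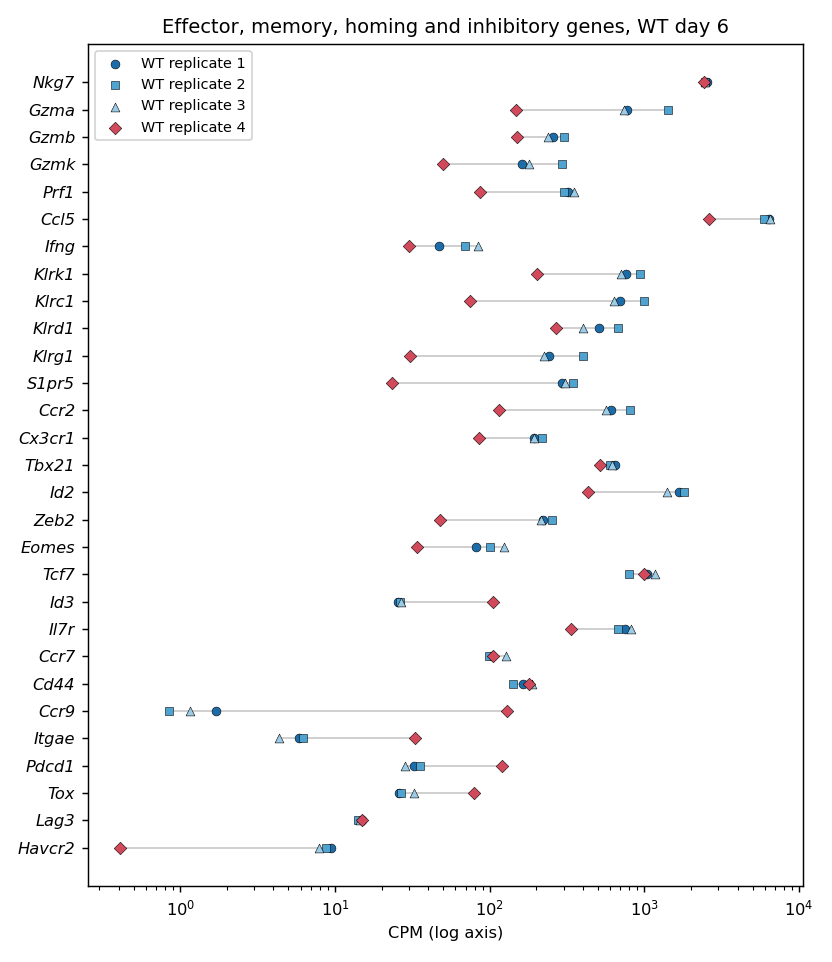
CPM (log axis) of 29 effector, homing, memory and inhibitory genes in the 4 WT libraries, 1 symbol per library and a grey line over their range. Replicates 1 to 3 lie close together; replicate 4 lies apart on the low side for Klrg1, S1pr5, Zeb2 and Havcr2, apart on the high side for Ccr9, Itgae, Id3 and Pdcd1, and among the others for Tcf7, Ccr7 and Cd44.

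Cytokine receptors had 1 above and 4 below of 22, where 5.97% of all genes compared were above and 4.92% below. Il18rap, a chain of the IL-18 receptor, was at 876, 1269, 691 and 297 CPM, and Il2ra (CD25) at 20.7, 20.9, 16.5 and 3.75 CPM. Il18r1 and Il10ra were the others below, and Ifngr2 was above at 0.361, 0.554, 0.315 and 3.69 CPM. Il2rb, the chain shared by IL-2 and IL-15 receptors, was at 923, 882, 1071 and 1183 CPM, a level that replicate 4 shared. Among cytokines and chemokines 3 of 13 were below, Ccl5, Ccl4 and Ccl9, and 2 above, Xcl1 and Il2. Of 21 interferon response genes 5 were below and 1 above, with Ifit3 at 27.5, 43.2, 29.3 and 6.67 CPM. Rsad2 (viperin) was at 3.69, 8.14 and 4.64 CPM in replicates 1 to 3 and had no count in replicate 4, where 3 counts would be 0.0506 CPM before TMM scaling. MHC class I genes had 0 above and 0 below of 14, although 11 were lower in replicate 4 than in each other library by any amount (43.8% of all genes compared). Memory and naive genes had 2 of 22 above, Id3 and Igfbp4, and 2 below, Eomes and Satb1.

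The other large gaps below were scattered in function. Tada2b, an adaptor of histone acetyltransferase complexes, was at 41.8, 44.0, 54.2 and 2.43 CPM, and Erbb3, a receptor of the EGF family, at 19.5, 17.6, 19.0 and 0.787 CPM. Esm1 (endocan) was at 25.3, 35.7, 27.4 and 2.03 CPM, and Fcgr2b, the inhibitory Fc receptor, at 35.8, 48.04, 30.2 and 3.51 CPM. In each, replicates 1 to 3 were close and replicate 4 was far below them. Tada2b shares exons with Grpel1, S1pr5 with Gm48303, Fcgr2b with Gm38204 and Zeb2 with Zeb2os.

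**Figure D4:**
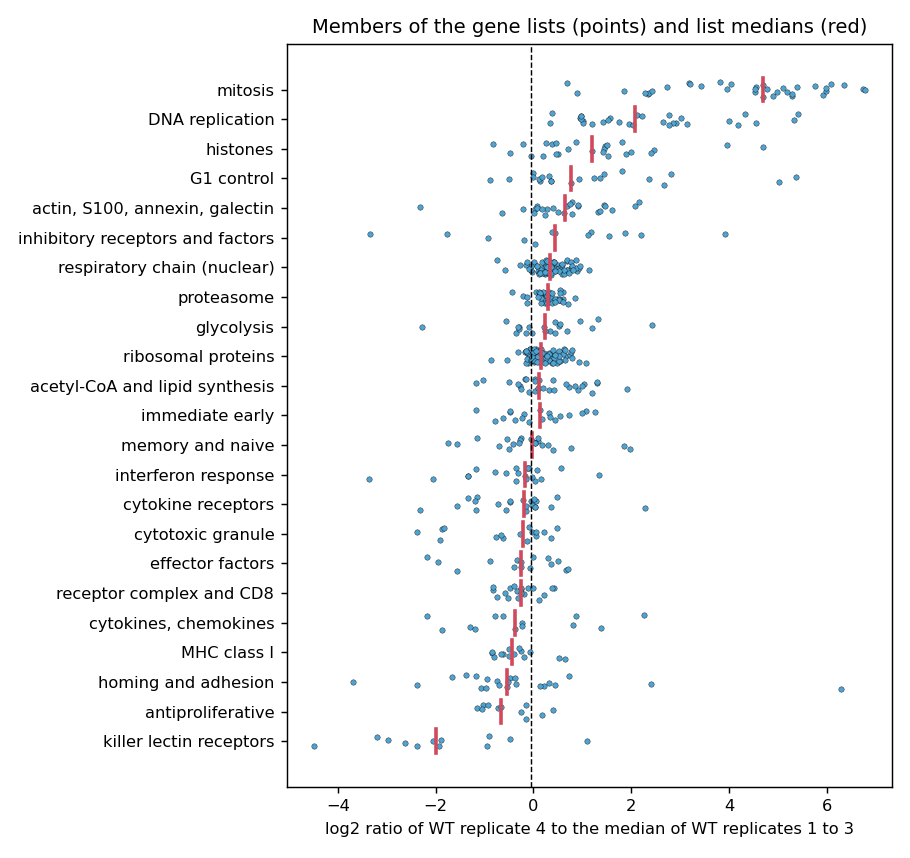
Log2 ratio of WT replicate 4 to the median of WT replicates 1 to 3 for the compared members of 23 gene lists, 1 point per gene, with the list median in red and the median of all compared genes (-0.05) as a dashed line. Mitosis (median 4.69) and replication (2.08) lie farthest to the right and killer lectin receptors (-1.99) farthest to the left, and the homing list holds Ccr9 as a single point far to the right.

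Transcript types differed too. The 48 miRNA models summed to 2207, 1801, 1996 and 671 CPM, most of it 1 unnamed model, and the 53 T cell receptor joining segments to 269, 262, 257 and 135 CPM. Of 29 joining segments compared 10 were below and 1 above, where 4.92% of all genes compared were below and 5.97% above. Across 11993 genes, the log2 ratio of replicate 4 had a Spearman correlation of -0.12 with merged exon length, as a description of genes that share the library. So longer genes were on average slightly lower in replicate 4, and the part of length in the results was not tested.

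Among replicates 1 to 3 themselves, 158 genes spanned at least 2-fold. They were not sorted as a whole, and 2 groups with wide ranges, globins and immediate early genes, are described here. Globins were high in replicate 2: Hbb-bs was at 3.999, 284, 0.946 and 23.1 CPM, Hba-a1 at 1.27, 75.5, 0.260 and 7.33 CPM, and Hbb-bt at 0.8292, 52.6, 0.130 and 5.78 CPM. The 8 measured red cell markers summed to 7.74, 470, 1.87 and 40.5 CPM, and Alas2, the first enzyme of haem synthesis in red cell precursors, was at 0.522, 22.7, 0.0557 and 0.606 CPM. Reads of the globin genes could be shared among near-identical copies.

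Immediate early genes, which are switched on within minutes of a stimulus, were high in replicate 3. The list summed to 3714, 3507, 6309 and 3504 CPM. Nr4a1, an orphan nuclear receptor that reports receptor signalling, was at 16.8, 17.5, 80.5 and 35.5 CPM, Tnfaip3 (A20, a brake on NF-kB) at 170, 232, 742 and 313 CPM, and Egr1 at 186, 84.0, 317 and 82.3 CPM. Dusp1, a phosphatase of MAP kinases, was at 83.8, 106, 307 and 223 CPM, and Jun at 43.3, 28.6, 85.2 and 63.3 CPM. Replicate 3 was the highest of the 4 for each of these, with replicate 4 second or last. Of the 158 genes with a 2-fold range among replicates 1 to 3, replicate 3 was highest for 70, replicate 2 for 66 and replicate 1 for 22. Replicate 1 was lowest for 75 of them, replicate 3 for 54 and replicate 2 for 29. None of the 19 compared immediate early genes was 2-fold outside that range in replicate 4, where 5.97% of all genes compared were above and 4.92% below. Cd74, the MHC class II invariant chain, completed the 10 genes with the widest range, at 4.53, 20.6, 10.2 and 16.5 CPM.

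**Figure D5:**
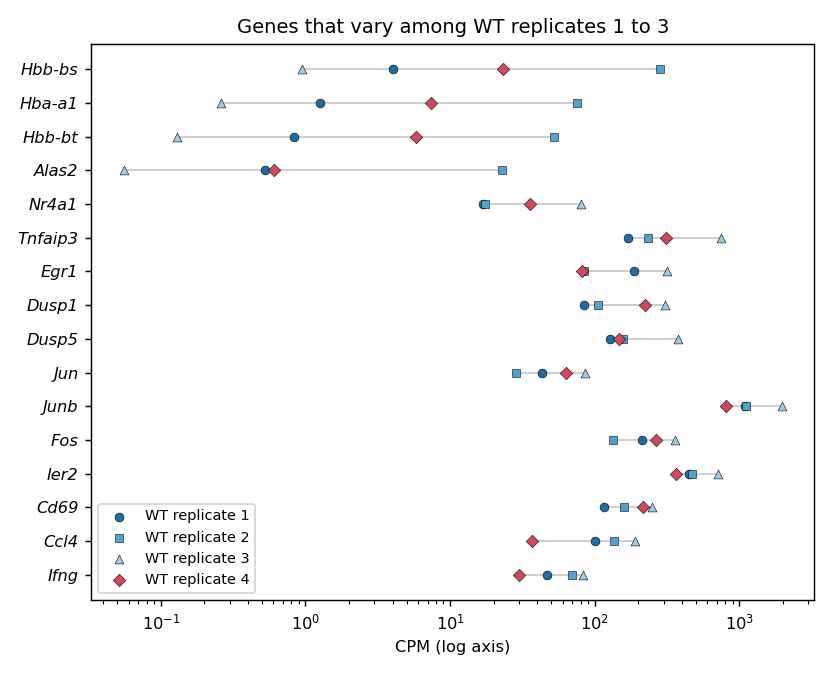
CPM (log axis) of globin and Alas2 transcripts and of immediate early and related genes in the 4 WT libraries, 1 symbol per library and a grey line over their range. Replicate 2 is highest for the 4 red cell genes (up to 284 CPM for Hbb-bs) and replicate 3 for the genes from Nr4a1 down, Ccl4 and Ifng included.

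Markers of other cells were low in general, with exceptions. In the B cell list, Ighm was at 294, 222, 321 and 642 CPM while Ms4a1 was at most 0.444 CPM and Pax5 was at 0 in 3 libraries. The 12 genes summed to 300.4 to 375 CPM in replicates 1 to 3 and 683 CPM in replicate 4, mostly Ighm. Of 9 compared, 1 was above (Ighd) and 2 were below, where 5.97% of all genes compared were above and 4.92% below. The 2 below were Igkc, at 7.68, 23.2, 18.9 and 3.15 CPM, and Jchain, at 0.869, 9.51, 5.03 and 0 CPM. Macrophage markers summed to 42.2 to 59.4 CPM in the first 3 libraries and 42.8 CPM in replicate 4, and granulocyte markers to at most 2.62 CPM in any library. Platelet markers reached at most 9.71 CPM. Ighm was thus abundant where Ms4a1 and Pax5 were near 0. The NK list summed to 55.4 to 83.8 CPM in replicates 1 to 3 and 11.5 CPM in replicate 4, with Ncr1 at most 0.222 CPM. Klrb1c made up most of the sum in replicates 1 to 3. In replicate 4, at 2.62 CPM, Klrb1c was under Gata2 (3.88 CPM) and Tyrobp (3.23 CPM), listed genes that are not confined to NK cells. Gamma delta markers summed to 319 to 335 CPM and 24.04 CPM, mostly Trdc, with Trgc1 at most 1.30 CPM. Dendritic markers summed to 378 to 398 CPM and 159.5 CPM, mostly Itgax, which activated CD8 cells also express, and stromal markers to 69.9 to 81.9 CPM and 74.4 CPM, mostly Pecam1. The CD4 lineage list summed to 42.7 to 45.6 CPM in replicates 1 to 3 and 44.8 CPM in replicate 4, but its members differed in direction: of 5 compared, Ikzf2 was above (3.33, 5.23, 5.34 and 28.9 CPM) and 3 were below, among them Cd40lg and Zbtb7b. Cd40lg was at 15.8, 13.2, 12.7 and 1.82 CPM. Xist was at 18.1, 21.3, 15.5 and 52.9 CPM and the 4 Y-linked genes summed to 2.54 to 6.28 CPM. The part of these cells in the results on replicate 4 was not tested.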

How the data were processed

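RNA sequencing of total RNA was described for the 4 WT libraries of a 7-library series. Per the labels' protocols, RNA was isolated on columns with DNase digestion. Per the submitters' processing notes, Trim Galore 0.6.0, STAR 2.7.8, mm10 and DESeq2 (no version stated) were used; for gene annotation, counting tool, strand setting and filters, the state is: not given in the sources used here. Deposited by the authors were raw counts of 16156 genes and a log2 CPM table. The deposited log2 values equalled edgeR TMM values (prior count 2) recomputed from the counts within 4.99e-09; that table supplied gene symbols.

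TMM factors over the 4 WT libraries (edgeR 4.0.16, R 4.3.3) gave CPM. The library totals were 75586011, 45288353, 54667820 and 59238223 counts, where 3 counts equal 0.0397 to 0.0662 CPM before TMM scaling. Merged exon lengths, coordinates and missing names came from GENCODE M21 (GRCm38, 16141 genes matched), and promoters from RefSeq (GRCm38.p6). Replicate 4 was compared with replicates 1 to 3 on log2(CPM + 0.5) among genes with a mean of at least 1 CPM, with a 2-fold limit outside their range and no test. The libraries, the comparison and the 38 gene lists (557 symbols, of which 30 were not measured, and 7 patterns) were chosen with earlier results of these data known.

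Genes named by rule were the top 20 by CPM and per kb (mitochondrial and unnamed models counted only); in each list the 2 highest per kb and those with the highest and lowest ratio of replicate 4; the 10 largest gaps each way and the 10 widest ranges among replicates 1 to 3 at a mean of at least 10 CPM; and Acly, Acss2, Cd8a, Cd8b1, Cd44, Klrg1, Il7r, Tbx21, Tcf7, Gzmb and Mki67. The other list members and the genes at the limit were named after their values were seen. Where counting ignored strand, genes that share exons cannot be told apart. Further named genes that do so include Coro1a, Jak1, Lck, Cd52, Junb, Satb1, Trdc, Dusp1, Xist, Rpl28, Cdc25b, Zbtb7b and Xcl1. Alternatives were other scalings (among them DESeq2 1.42.0 median of ratios), filters, pseudocounts, limits and lengths, and each library left out; the comparison was tested on simulated data. Python 3.11.15 was used. A few genes that the rule or the lists hold are not reported here.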

Additional observations from a re-analysis of the deposited data

Results flagged for a closer look

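A gene or summed list is given here when 1 of the 4 WT libraries stood apart from the nearest other by more, as a share of the whole range, than Dixon's 95% critical value for 4 samples. Of 134 sets of 4 values examined (92 genes, 35 list sums and 7 library measures), 24 did so, 19 of them by replicate 4. Chance gives about 1 in 20 for independent sets, but these overlap and replicate 4 was known to stand apart beforehand, so the tally is a description and supports nothing. Members and sums of the cell cycle lists, for which replicate 4 was singled out, were not examined, nor were genes chosen for its gaps or for a wide range unless another part of the rule named them.

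Replicate 4 was the highest for Tmsb10 (share of the range 0.930), Epcam (0.927), Ldha (0.924), Psmb2 (0.922), Pdcd1 (0.919), Cox6a1 (0.884), Xist (0.845) and Actb (0.842). Epcam, an epithelial adhesion molecule, was at 1.39, 1.13, 1.99 and 12.8 CPM. Cox6a1, a subunit of cytochrome oxidase, was at 266, 233, 235 and 514 CPM, and the proteasome subunit Psmb2 at 179, 172, 176 and 258 CPM. The summed sex-linked list (0.832) was also highest there.

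Replicate 4 was the lowest for Trdc (0.944), H2-K1 (0.940), Itgax (0.915), Trbd1 (0.896) and Ccl5 (0.851). H2-K1, the class I molecule that presents the ovalbumin peptide, was at 5064, 5112, 4976 and 2816 CPM. The lists that were lowest there were the gamma delta markers (0.948), cytokine receptors (0.936), dendritic markers (0.915), cytokines and chemokines (0.884) and effector factors (0.836).

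Replicate 2 was the highest for Hbb-bs (0.922), Hba-a1 (0.906) and the red cell list (0.918), replicate 3 for the immediate early list (0.925), and replicate 1 for Mcpt8, a basophil protease (0.973), at 0.682 CPM against at most 0.0186 CPM elsewhere.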

How the results depend on the processing

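The count of genes 2-fold outside the range of replicates 1 to 3 depended on the limits and hardly on the scaling. With a limit of 1.5-fold 1427 genes were above and 1498 below, with 4-fold 265 and 100, and with a mean of at least 10 CPM 328 and 284; a pseudocount of 2 CPM left 348 below. Leaving out each of replicates 1 to 3 gave 800 to 831 above and 646 to 669 below, where a range of 2 libraries is narrower. The other 4 scalings gave 726 to 769 above and 538 to 586 below, with median log2 ratios of -0.05 to 0.0. Genes above made up 54.8% of all counted and 72.6% at the 4-fold limit. Of 176 named genes compared, 71 were counted. Of the 71, 26 fell out under at least 1 of the 13 alternatives, the same number as under the 4-fold limit. Of the rest, 33 entered under at least 1. None of the 71 changed sign, but genes at least 2-fold outside the range could hardly do so under these alternatives, so this supports nothing. At a mean of at least 10 CPM only 146 of the 176 were compared. At least 17 of the 20 highest genes per kb and 19 of the 20 by CPM stayed under every alternative run. No list sum moved by more than 1 SD of the 4 libraries. Leaving out 1 of 4 libraries can hardly move a mean that far, so this does not show that list levels are free of replicate 4. The mitosis list, with a mean ± SD of 1984 ± 2698 CPM, summed to 585 to 671 CPM in replicates 1 to 3 and 6032 CPM in replicate 4. At the depth of replicate 4, 3 counts equal 0.0506 CPM before TMM scaling, so levels well under that rest on fewer than 3 counts. No paired analysis was possible because no test between groups was made: the replicate numbers label libraries of 1 group.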
